A study of Mus musculus with 2 samples.

Results

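The cytochrome P450 family 2 genes were taken as the rows of the count tables whose symbol is Cyp2, a lower-case letter and a number, which gave 48 genes of 24421. They fall into 13 subfamilies, with 4 genes in 2a, 5 in 2b, 15 in 2c, 9 in 2d, 7 in 2j and 1 each in 2e, 2f, 2g, 2r, 2s, 2t, 2u and 2w. The tables come from liver of male C57BL/6 mice that were 6 weeks old when a high-fat diet began and received it for 12 weeks. The control group was 1 library with floxed Rora alleles (RORα f/f), and the compared group was 1 library with the same alleles plus Alb-Cre (RORα f/f:Alb-Cre), labelled LKO. RORα is a nuclear receptor, and the title of the series names genes that it alters in the progression of steatohepatitis. Cre from the albumin promoter acts in hepatocytes. Which liver cells of these mice kept their floxed alleles is not given. The labels do not say whether a library held RNA of 1 mouse or more.

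Enzymes of this family sit in the membrane of the endoplasmic reticulum, hold a haem group and take electrons from NADPH through cytochrome P450 reductase. In liver they oxidise drugs, steroids, fatty acids, bile acids and vitamin D. Their transcription is known to respond to xenobiotic sensors (CAR, PXR), to liver-enriched factors such as HNF4A, and, for members that differ between the sexes, to the rhythm of growth hormone through STAT5.

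Total counts were 128201591 (control) and 131843686 (labelled LKO). Levels are CPM, read counts relative to library size, after TMM scaling, which sets typical genes level between libraries. A gene was called measured when its mean reached 1 CPM and its counts summed to 20 or more. Each genotype had 1 library, so there was no replicate check and no test. Each ratio compares these libraries, with a 95% exact (Clopper-Pearson) interval that covers counting error only. Under scaling to total counts each log2 ratio is greater by 0.42. Rora had 3701 counts (33.4 CPM, control) and 3677 counts (24.1 CPM, labelled LKO). Counts over the whole gene thus do not settle the genotype, and directions below refer to the library by its label. The 7 measured hepatocyte markers summed to 164103 and 121407 CPM, and Alb stood at 117952 and 91007 CPM, as is usual of liver. With TMM scaling, the 5 measured Kupffer cell markers were all at least 1.5-fold lower (6 markers summed to 73.8 and 39.5 CPM). Of 6 stellate cell markers 3 were at least 1.5-fold higher (189 and 263 CPM), and 0 of 6 endothelial markers passed 1.5-fold. Over all measured genes 10.5% passed 1.5-fold upward and 9.76% downward. With total-count scaling the 5 Kupffer cell markers had log2 ratios of −0.81 to −0.30, and only Timd4 stayed past 1.5-fold. The median log2 ratios were then 0.99 (stellate) and 0.56 (endothelial). The cholangiocyte markers Krt19, Krt7 and Epcam were under 0.5 CPM in both libraries and Cftr was at 0. In bulk tissue, fewer cells of a type and less RNA per cell cannot be told apart, and the part of cell makeup in the results below was not tested.

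Of the 48 genes, 36 were measured. Cyp2b19, Cyp2c65, Cyp2c66, Cyp2j11, Cyp2j12, Cyp2j13 and Cyp2w1 had 0 counts in both libraries, which (at 3 counts) allows levels of up to 0.0271 CPM for the control and 0.0197 CPM for the other library. Cyp2b23, Cyp2j8, Cyp2s1 and Cyp2t4 had 0 control counts, and 3, 2, 4 and 7 counts in the LKO-labelled library. Cyp2g1, an olfactory P450, had 6 and 41 counts. All 12 are thus near or below detection in this liver RNA, and several of them are known from epithelia of skin, gut or nose.

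Of the 36 measured genes, 7 stood 2-fold or more above control in the LKO-labelled library and 5 stood 2-fold or more below, in each case with an interval that did not hold 1. Over all 11137 measured genes the same calls were made for 3.83% (higher) and 2.62% (lower). Scaled to total counts, 9 members were higher (10.6% of all genes) and 1 lower (1.1%). The higher genes were Cyp2b9, Cyp2b10, Cyp2b13, Cyp2c38, Cyp2c39, Cyp2c55 and Cyp2a22, and the lower ones Cyp2c54, Cyp2c44, Cyp2c70, Cyp2d34 and Cyp2u1. Cyp2b9, Cyp2b10, Cyp2b13 and Cyp2c55 stood below 1 control CPM and met the filter through their LKO-labelled level alone, so they had to differ and they tilt the count of higher genes. At 1.5-fold, 9 were higher and 8 lower, against 10.5% and 9.76% of all measured genes, and 19 lay within 1.5-fold. The median log2 ratio was −0.04 (0.38 with total-count scaling), beside −0.00 (0.42) over all measured genes. Of the 36 log2 ratios, 15 were positive and 21 negative, and 11 of the negative ones become positive on total counts. Counting only genes with a mean of at least 10 CPM, 3 of 29 passed 2-fold upward and 4 downward, where 2.84% and 2.32% of all 5380 such genes were. This filter too uses the mean. Of the 3, Cyp2b9 (0.866 CPM) and Cyp2a22 (7.93 CPM) were under 10 CPM in the control library and met it through their LKO-labelled level. The 4 lower genes were above 10 CPM in both libraries, so the upward and downward counts are not alike.

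**Figure D1:**
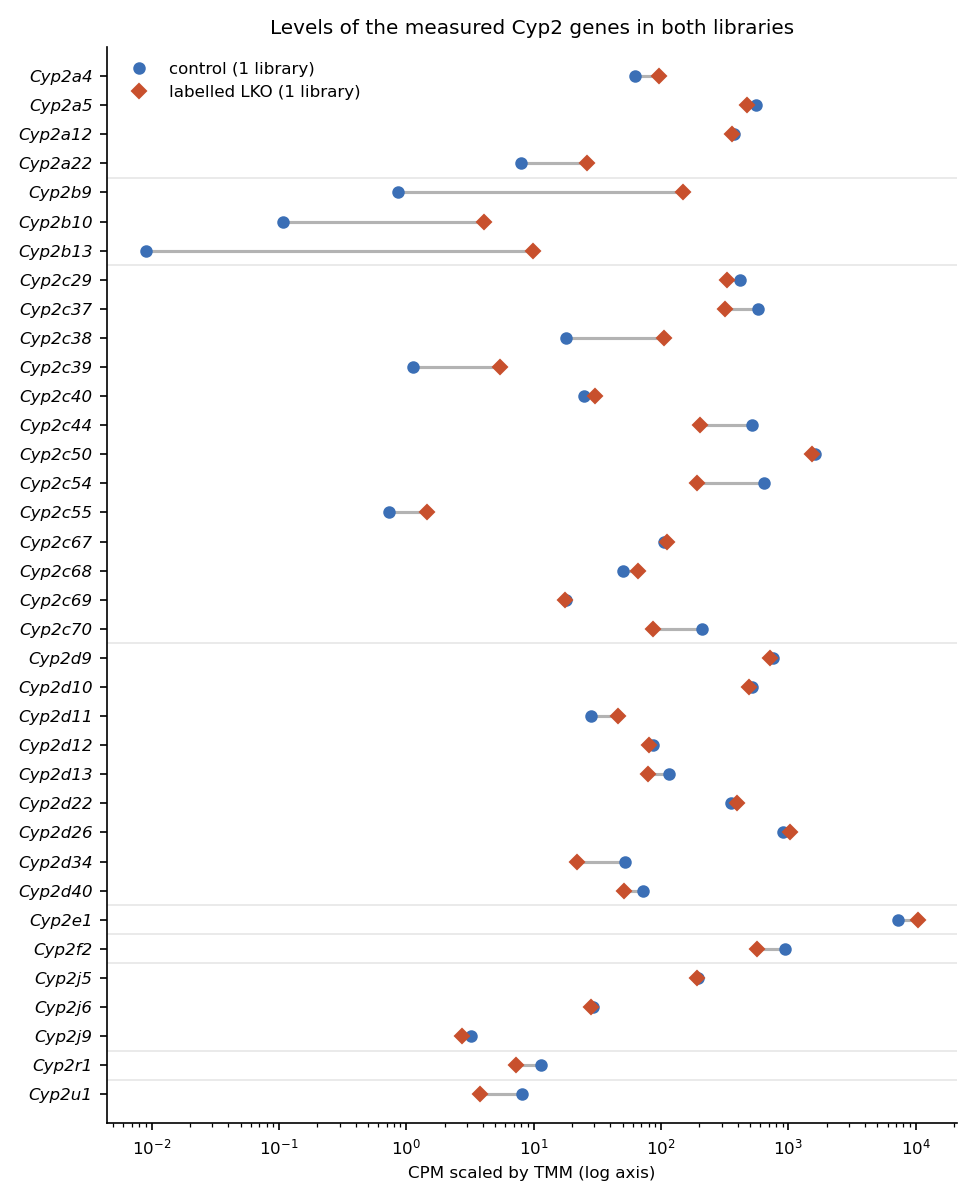
Levels of the 36 measured Cyp2 genes as CPM scaled by TMM (log axis), grouped by subfamily, with circles for the control library and diamonds for the library labelled LKO. The control points of the 2b genes lie under 1 CPM and the others between 4.05 and 149 CPM, while most 2d and 2j pairs of points nearly coincide.

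**Figure D2:**
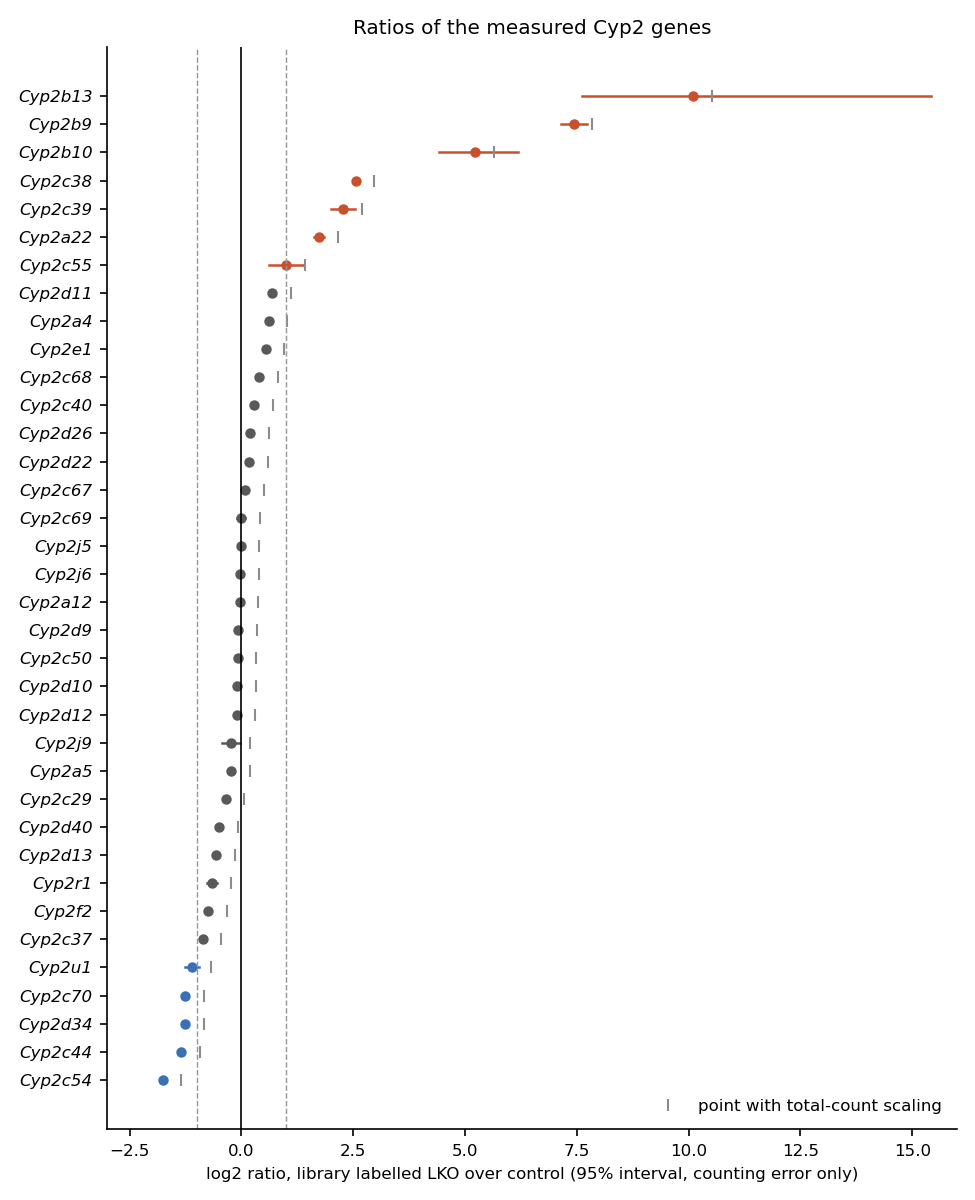
Log2 ratio of each measured Cyp2 gene, library labelled LKO over control, with its 95% interval for counting error (red: at least 2-fold higher, blue: at least 2-fold lower, dashed lines: 2-fold), and short vertical ticks for the value with total-count scaling. Cyp2b13 has the widest interval, since it had 1 count in the control library, and the ratios run from −1.76 for Cyp2c54 to 10.11 for Cyp2b13.

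The 2b subfamily held the largest ratios. Its summed level went from 0.983 CPM (control) to 163 CPM (labelled LKO), 166-fold (interval 138 to 202) higher. Cyp2b9, a steroid-oxidising enzyme that is female-biased in mouse liver, had 96 and 22754 counts (0.866 and 149 CPM), 172-fold (interval 141 to 213) higher. Cyp2b13, its closest relative and also female-biased, had 1 and 1517 counts, a ratio of 1103 (interval 198 to 43587). Cyp2b10, the classical target of the phenobarbital-responsive receptor CAR, had 12 and 618 counts (0.108 and 4.05 CPM), 37.4-fold (interval 21.3 to 72.9) higher. These 3 genes are protein coding and neighbour each other on chromosome 7 (mm10, RefSeq), Cyp2b10 at 25897658 to 25926624, Cyp2b13 at 26061388 to 26096197 and Cyp2b9 at 26173350 to 26210661. The other 2b genes, Cyp2b23 and Cyp2b19, lie beyond Cyp2a4 on the same chromosome and stayed at 3 or fewer counts, so the difference did not extend to each 2b gene. Cyp2b9 made up 149 of the 163 CPM, so the sum of the subfamily mostly restates that gene. In coding sequence (GENCODE M21) Cyp2b9 and Cyp2b13 were 92.7% identical, and Cyp2b10 was 87.2% identical to Cyp2b13. Of the 50-base words in each transcript, 10.8% of those of Cyp2b9 and 9.02% of those of Cyp2b10 also occurred in another family member, and for Cyp2b13 the share was larger. It is unknown how reads that match several genes were counted, so the split between these genes is uncertain.

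Promoter windows of these 3 genes, 250 bases before to 50 after the start (RefSeq, GRCm38.p6), are shown because the genes were higher together and 2 of the windows are almost the same. The start is that of a RefSeq transcript and can lie within the span of its gene. Those of Cyp2b9 (chr7:26173159-26173458, plus strand) and Cyp2b13 (chr7:26061245-26061544, plus strand) differ at 2 of 300 positions and are 99.3% identical, more than their coding sequences. That of Cyp2b10 (chr7:25897408-25897707, plus strand) was 71.7% identical to either. Capitals mark the hexamer AGGTCA, on which sites of RORα, HNF4A and CAR are built, on either strand (TGACCT on the other).
Cyp2b9: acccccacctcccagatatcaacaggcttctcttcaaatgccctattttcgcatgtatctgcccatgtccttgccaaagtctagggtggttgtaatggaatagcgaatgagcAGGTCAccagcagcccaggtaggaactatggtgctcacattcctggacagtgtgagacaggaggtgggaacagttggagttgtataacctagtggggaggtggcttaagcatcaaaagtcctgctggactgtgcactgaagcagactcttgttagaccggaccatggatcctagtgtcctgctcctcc
Cyp2b13: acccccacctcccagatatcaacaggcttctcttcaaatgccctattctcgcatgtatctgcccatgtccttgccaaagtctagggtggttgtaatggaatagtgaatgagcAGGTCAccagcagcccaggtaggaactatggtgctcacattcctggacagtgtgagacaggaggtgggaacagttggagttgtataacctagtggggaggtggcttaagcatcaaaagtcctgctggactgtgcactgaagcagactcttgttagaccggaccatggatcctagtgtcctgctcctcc
Cyp2b10: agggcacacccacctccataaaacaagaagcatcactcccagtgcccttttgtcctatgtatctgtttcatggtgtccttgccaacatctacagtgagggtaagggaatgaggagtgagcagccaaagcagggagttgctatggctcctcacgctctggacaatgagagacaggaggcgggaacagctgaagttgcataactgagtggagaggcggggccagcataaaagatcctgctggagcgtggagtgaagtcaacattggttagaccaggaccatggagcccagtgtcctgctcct
Cyp2b9 and Cyp2b13 each hold 1 such hexamer, 138 bases before the start used for the window, and the window of Cyp2b10 does not hold it. For Cyp2b9 and Cyp2b13 the gene span given above begins before that start, so the hexamer lies closer to the span. In all 3 windows the bases just after the start were not found in the GENCODE transcript used, so the distance is uncertain. Of the 40 family genes with a window, 13 held the hexamer, in 13 of their 42 windows (31.0%), against 16.3% of all 32851 windows. The family windows are not independent, since related copies share sequence. The hexamer stands in the same stretch in Cyp2b9, Cyp2b13, Cyp2b19 and Cyp2b23, and in another shared stretch in Cyp2a4 and Cyp2a5. The 13 genes were 3 of the 7 at least 2-fold higher (Cyp2b9, Cyp2b13 and Cyp2c39), the 1 at least 2-fold lower (Cyp2c70), 6 of 21 other measured genes and 3 of 11 unmeasured ones. A match is a description of the letters and not a site. Windows were not found for Cyp2c44, Cyp2c54, Cyp2d12, Cyp2d13, Cyp2d22, Cyp2d34, Cyp2g1 and Cyp2u1.

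In the 2a subfamily the sum was nearly level, at 997 and 956 CPM (log2 ratio −0.06, and 0.36 with total-count scaling), but the split between near-identical copies differed. Cyp2a4, a steroid hydroxylase with female-biased expression, had 6964 and 14625 counts (62.8 and 95.9 CPM), 1.53-fold (interval 1.48 to 1.57) higher. Cyp2a5, which oxidises coumarin and nicotine, had 61345 and 71823 counts (553 and 471 CPM), 1.17-fold (interval 1.16 to 1.19) lower, a sign that total-count scaling reverses. The coding sequences of this pair were 98.4% identical, the closest in the family, and 36.1% of the 50-base words of Cyp2a4 occurred in another member. Within the pair, Cyp2a4 took 10.2% (interval 9.97 to 10.4) of control counts and 16.9% (interval 16.7 to 17.2) of the others. This share does not depend on scaling between libraries, but its intervals cover counting error only. How reads that match several copies were counted is unknown, so the split within 2a pairs is uncertain. Cyp2a22 and Cyp2a12, 97.0% identical in coding sequence, showed the same kind of shift. Cyp2a22 had 879 and 4022 counts (7.93 and 26.4 CPM), 3.33-fold (interval 3.09 to 3.58) higher. Cyp2a12, which hydroxylates testosterone and bile acids, had 41384 and 55330 counts (373 and 363 CPM), a log2 ratio of −0.04 that becomes positive on total counts. The share of Cyp2a22 in that pair was 2.08% and 6.78%. In each pair it was the less abundant copy that was higher. Summed, Cyp2a4 and Cyp2a5 had a log2 ratio of −0.12, a sign that total-count scaling reverses, and Cyp2a12 and Cyp2a22 one of 0.03.

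The windows of Cyp2a4 (chr7:26306942-26307241, plus strand) and Cyp2a5 (chr7:26835089-26835388, plus strand) are shown because this pair is almost identical there too, at 97.7% with gaps counted, and yet differed in direction with TMM scaling.
Cyp2a4: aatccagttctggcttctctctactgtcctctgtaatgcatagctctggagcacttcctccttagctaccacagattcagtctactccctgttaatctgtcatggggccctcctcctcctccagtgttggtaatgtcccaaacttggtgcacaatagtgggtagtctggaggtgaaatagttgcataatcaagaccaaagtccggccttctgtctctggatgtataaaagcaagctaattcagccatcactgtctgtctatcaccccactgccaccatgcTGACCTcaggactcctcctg
Cyp2a5: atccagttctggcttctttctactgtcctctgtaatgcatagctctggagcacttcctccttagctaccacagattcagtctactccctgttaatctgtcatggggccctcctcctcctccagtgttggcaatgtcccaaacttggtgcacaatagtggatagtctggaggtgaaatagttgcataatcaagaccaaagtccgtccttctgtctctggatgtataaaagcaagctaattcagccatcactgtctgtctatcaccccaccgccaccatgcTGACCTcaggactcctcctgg
Both carry the hexamer on the opposite strand (TGACCT, in capitals), 30 bases after the start in Cyp2a4 and 29 in Cyp2a5.

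The 2c subfamily, whose enzymes make epoxides and hydroxylated products of arachidonic and linoleic acid, held differences in both directions. Its sum was 4205 and 2992 CPM, 1.41-fold (interval 1.40 to 1.41) lower with TMM scaling. With total-count scaling the log2 ratio of this sum was −0.07, so the size of the decrease depends on the scaling. Of 15 genes 13 were measured. The calls at 2-fold were 3 up and 3 down, and the median log2 ratio was −0.01 (turning positive with total-count scaling). Among the lower ones, Cyp2c54, an epoxygenase gene, had 71385 and 28990 counts (644 and 190 CPM), 3.39-fold (interval 3.34 to 3.43) lower. Its neighbour Cyp2c37, which makes a hydroxylated arachidonate, had 64422 and 48627 counts (581 and 319 CPM), 1.82-fold (interval 1.80 to 1.84) lower. Cyp2c50, the most abundant 2c gene, had 179478 and 232893 counts (1619 and 1527 CPM), a log2 ratio of −0.08 that becomes positive on total counts. These genes are 95.1% to 96.1% identical in coding sequence and share 25.7% to 30.7% of their 50-base words with other members. Within the 3, Cyp2c54 took 22.6% (interval 22.5 to 22.8) of counts in the control library and 9.34% (interval 9.23 to 9.44) in the other. Cyp2c37 took 20.4% and 15.7%, so that Cyp2c50 gained share of the counts as assigned. These intervals cover counting error only. How reads that match several of the 3 were counted is unknown, so the split is uncertain. The sum of the 3 was 315285 and 310510 counts (2844 and 2036 CPM), 1.40-fold lower with TMM scaling, a size that likewise depends on the scaling.

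Cyp2c70, which converts chenodeoxycholic acid to the muricholic acids of mouse bile, had 23106 and 13270 counts (208 and 87.0 CPM), 2.40-fold (interval 2.34 to 2.45) lower. Cyp2c44, an epoxygenase gene that RefSeq now lists as Cyp2c23, had 57205 and 30767 counts (516 and 202 CPM), 2.56-fold (interval 2.52 to 2.59) lower. No 50-base word of either occurred in another member, so their values do not hang on a split between copies of this family. Cyp2c70 ends the main 2c cluster on chromosome 19 (40153361 to 40187286), and Cyp2c44 lies apart from it (44005022 to 44029256).

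Of the higher 2c genes, Cyp2c38 had 2004 and 16174 counts (18.1 and 106 CPM), 5.87-fold (interval 5.60 to 6.15) higher. Cyp2c39, a relative known to oxidise retinoic acid, had 126 and 835 counts (1.14 and 5.48 CPM), 4.82-fold (interval 3.99 to 5.86) higher. The split of the pair was nearly the same in both libraries, with Cyp2c38 at 94.1% and 95.1% (interval 94.8 to 95.4) of its counts. The RefSeq span of Cyp2c39 (39347346 to 39569568, plus strand) encloses that of Cyp2c38 (39389556 to 39463103, minus strand), and the use of strand in counting is unknown, so reads of these genes may not be told apart. They are 94.2% identical in coding sequence, with 7.45% of the 50-base words of Cyp2c38 and 11.4% of those of Cyp2c39 in another member. Cyp2c55, an inducible arachidonate hydroxylase gene, had only 81 and 223 counts (0.731 and 1.46 CPM), 2.0-fold (interval 1.55 to 2.61) higher, at the edge of the call.

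The remaining 2c genes lay within 1.5-fold. Cyp2c29, an inducible epoxygenase gene, had 46303 and 49908 counts (418 and 327 CPM), 1.28-fold lower, a sign that total-count scaling reverses. Cyp2c40, Cyp2c67, Cyp2c68 and Cyp2c69 form the least separable group, with 43.3% to 72.1% of their 50-base words in another member. Cyp2c67 had 106 and 112 CPM, Cyp2c68 50.2 and 66.1, Cyp2c40 24.8 and 30.2, and Cyp2c69 17.9 and 17.7, or log2 ratios of −0.01 to 0.40, the lowest of which (Cyp2c69) turns positive with total-count scaling. Their sum was 199 and 226 CPM, 1.14-fold (interval 1.12 to 1.16) higher. Cyp2c40 and Cyp2c69 are female-biased in mouse liver, but the split of reads within this group is uncertain, which limits what their single ratios show. The part of sex bias in the ratios was not tested.

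**Figure D3:**
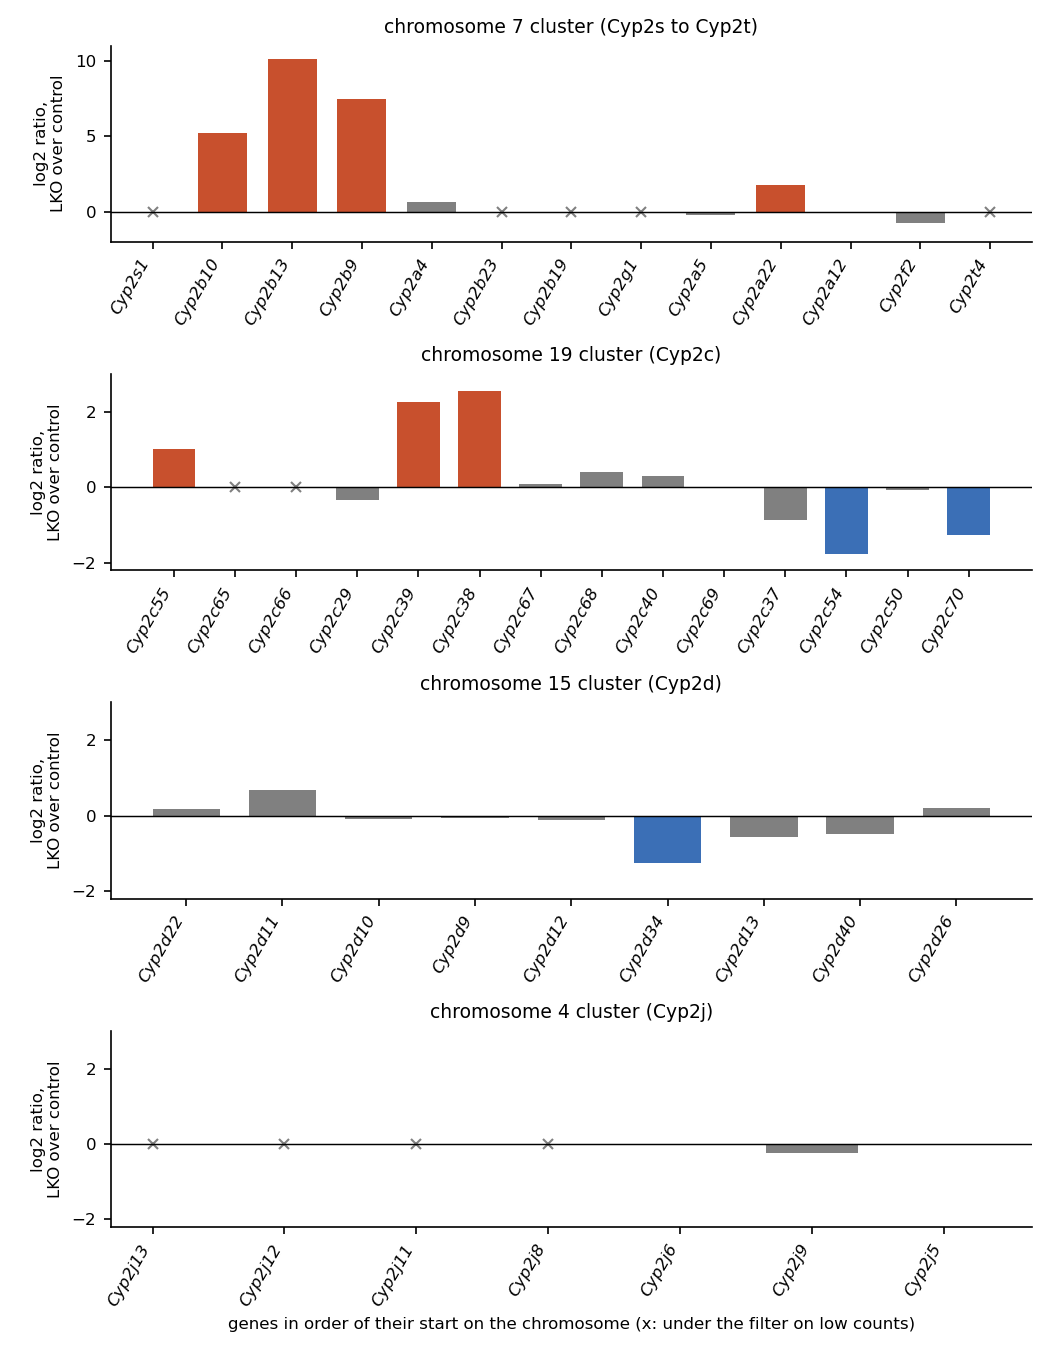
Log2 ratio, library labelled LKO over control, of Cyp2 genes in the order of their starts in the gene clusters of chromosomes 7, 19, 15 and 4 (red: at least 2-fold higher, blue: at least 2-fold lower, grey: within 2-fold, crosses: under the filter). The axis of the top panel is longer than that of the others, since the neighbouring Cyp2b10, Cyp2b13 and Cyp2b9 reach log2 ratios of 5.23 to 10.11, while Cyp2c37, Cyp2c54, Cyp2c50 and Cyp2c70 at one end of the 2c cluster lie at −1.76 to −0.08. Genes with neither a visible bar nor a cross, such as Cyp2a12, Cyp2c69 and Cyp2j5, had log2 ratios close to 0.

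With TMM scaling the 2d subfamily was level in sum, at 2886 and 2911 CPM, with 7 of 9 genes within 1.5-fold. The log2 ratio of the sum was 0.01, and 0.43 with total-count scaling. Cyp2d26, its most abundant gene, had 99991 and 157466 counts (902 and 1033 CPM) and a log2 ratio of 0.20. Cyp2d9, a testosterone hydroxylase with male-biased expression, had 83458 and 109019 counts (753 and 715 CPM), a log2 ratio of −0.07 that becomes positive on total counts. The exception on the lower side was Cyp2d34, with 5785 and 3321 counts (52.2 and 21.8 CPM), 2.40-fold (interval 2.30 to 2.50) lower. Its share of the counts of Cyp2d9, Cyp2d10, Cyp2d11, Cyp2d12 and Cyp2d34, which are 88.8% to 94.7% identical to each other in coding sequence, was 3.62% (interval 3.53 to 3.71) and 1.61% (interval 1.56 to 1.67). On the higher side, Cyp2d11 had 3151 and 6979 counts (28.4 and 45.8 CPM), 1.61-fold (interval 1.54 to 1.68) higher. With Cyp2d10, its closest copy (94.7%), it took 5.17% and 8.57% of their counts. The split of reads between these 2d copies is uncertain too. The gene of the microRNA Mir7684 overlaps Cyp2d11 and has its own row in the tables. Cyp2d10 (522 and 488 CPM), Cyp2d12 (86.0 and 79.7 CPM), Cyp2d22 (354 and 398 CPM) and Cyp2d40 (72.7 and 51.5 CPM) had log2 ratios of −0.50 to 0.17, of which those of Cyp2d10 and Cyp2d12 turn positive with total-count scaling. Cyp2d13, annotated by RefSeq as a transcribed pseudogene, had 116 and 78.6 CPM, 1.48-fold lower.

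Cyp2e1, the ethanol-, acetaminophen- and acetone-oxidising enzyme of pericentral hepatocytes, was the most abundant family gene. It had 799121 and 1598291 counts (7209 and 10482 CPM), 1.45-fold (interval 1.45 to 1.46) higher. Per kilobase of transcript it stood at 3933 and 5718 CPM, or 43.8% and 57.4% of the sum over the 47 genes with a transcript length. Next on this scale came Cyp2c50 (894 and 843 CPM per kilobase), Cyp2d26 (531 and 607), Cyp2f2 (509 and 305) and Cyp2d9 (440 and 418), so these 5 genes led in both libraries and Cyp2f2 ranked below Cyp2d9 in the LKO-labelled one. The family took 1.43% and 2.12% of all counts. Without Cyp2e1 it summed to 9286 and 7826 CPM, a log2 ratio of −0.25 that becomes positive on total counts, and with it to 16495 and 18308 CPM, a log2 ratio of 0.15. With TMM scaling the direction of the family total thus rests on Cyp2e1.

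**Figure D4:**
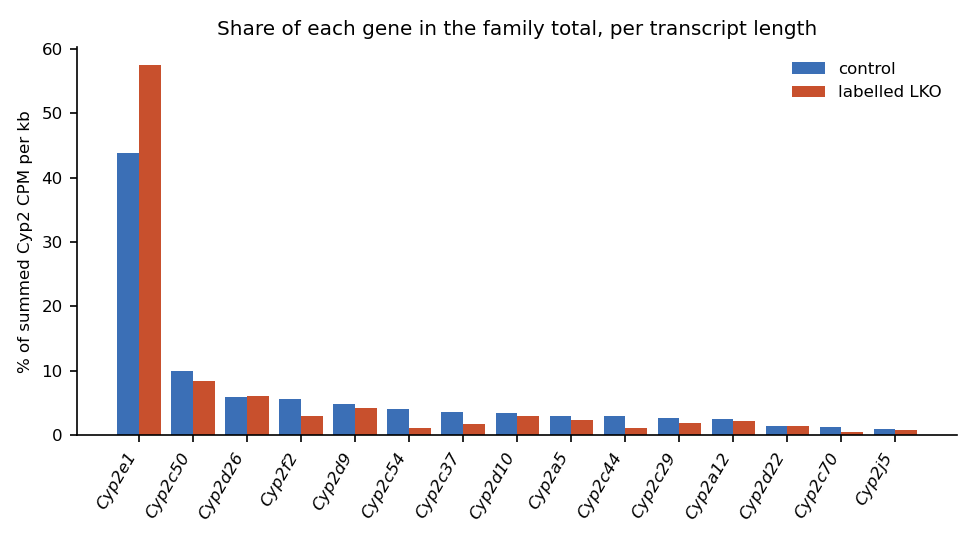
Share of each gene in the sum of CPM per kilobase over the family, for the 15 genes with the largest share, in the control library (blue) and the library labelled LKO (red). Cyp2e1 holds 43.8% and 57.4%, and Cyp2c54 holds 4.02% and 1.07%.

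Cyp2f2, which activates naphthalene and is expressed by periportal hepatocytes, had 105182 and 86687 counts (949 and 569 CPM), 1.67-fold (interval 1.65 to 1.68) lower. No 50-base word of Cyp2e1 or Cyp2f2 occurred in another member. Zonal genes outside the family were read beside all measured genes, of which 10.5% passed 1.5-fold upward and 9.76% downward, with a median log2 ratio of −0.00. Of 16 measured pericentral genes, 4 passed 1.5-fold upward and 2 downward, and the median log2 ratio was 0.05. Glul, the glutamine synthetase of the innermost pericentral cells, was 2.20-fold higher, Rhbg 2.31-fold and Axin2 2.13-fold, while Cyp1a2 was 1.63-fold and Rnase4, the most abundant of the list, 1.51-fold lower. Of 16 periportal genes, 0 passed 1.5-fold upward and 7 downward, and the median was −0.47 (−0.05 with total-count scaling). Among these, Cdh1 was 7.29-fold lower, Sds 2.69-fold and Hal 1.97-fold, and Alb, the most abundant, 1.30-fold lower (a direction that total-count scaling turns). Whether zonation had a part in the ratios of Cyp2e1 and Cyp2f2 was not tested.

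The measured 2j genes were nearly level. Cyp2j5 had 195 and 193 CPM, Cyp2j6 29.0 and 28.4, and Cyp2j9 3.23 and 2.75, with log2 ratios of −0.23 to −0.02 that all turn positive with total-count scaling. The intervals of Cyp2j5 and Cyp2j6 held a ratio of 1. Cyp2r1, which starts the activation of vitamin D, had 1276 and 1114 counts (11.5 and 7.31 CPM), 1.58-fold (interval 1.45 to 1.71) lower. Cyp2u1, a fatty acid hydroxylase gene, had 892 and 574 counts (8.05 and 3.76 CPM), 2.14-fold (interval 1.92 to 2.38) lower.

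Genes that serve or regulate the family were read from fixed lists. Beside them, 10.5% of all measured genes passed 1.5-fold upward and 9.76% downward, and the median log2 ratio was −0.00. Of 14 electron transfer and haem genes, 1 (7.14%) passed 1.5-fold upward and 0 downward, and the median log2 ratio was 0.21. That gene was Por, the reductase that feeds electrons to all microsomal P450 enzymes, at 128 and 221 CPM, 1.73-fold higher. Alas1, which sets the rate of haem synthesis, was 1.41-fold higher, and Cyb5r3, the most abundant, 1.46-fold. Of 23 measured regulators, 6 (26.1%) passed 1.5-fold upward and 1 (4.35%) downward, and the median was 0.34. Onecut1 was 5.60-fold, Foxa2 2.05-fold and Nr1i3, which encodes CAR, 1.96-fold higher, at 109 and 214 CPM. Nr1i2, which encodes PXR, stood at 34.8 and 36.5 CPM and Hnf4a at 222 and 191 CPM. Bcl6, a repressor of female-biased genes in male liver, was 5.16-fold lower, at 37.2 and 7.21 CPM, and Ghr, the growth hormone receptor gene and the most abundant of the list, 1.27-fold lower (a direction that total-count scaling turns). These values stand beside those of the 2b genes, and their part in them was not tested.

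Other P450 families were read in the same libraries. Of 5 measured Cyp3a genes, 2 passed 2-fold upward and 0 downward, and the median log2 ratio was 0.80. Of 15 measured Cyp4 genes, 5 passed it upward and 1 downward, and the median was 0.81. Among 16 measured genes with other Cyp names, 3 (18.8%) passed it upward and 2 (12.5%) downward, and the median was −0.11. The shares in family 2 were 19.4% and 13.9%, and those over all measured genes 3.83% and 2.62%. The 19.4% includes the 4 genes that met the filter through their LKO-labelled level alone. The other families were not checked for such genes, so these upward shares are not a measure of how the families compare. The medians of Cyp3a and Cyp4 genes exceeded that of the 36 family 2 genes (−0.04), a description of these libraries with no test.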

How the data were processed

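RNA of 1 control liver library and 1 liver library labelled LKO was sequenced after preparation from 500 ng of total RNA with a LEXOGEN mRNA-Seq kit, per the labels' protocols. The deposited values are raw counts, whole numbers for each gene symbol. TopHat, edgeR and build mm10 are named in the submitters' processing notes, without versions. The counting tool, its annotation, its use of strand and its rule for ambiguous reads are unknown here.

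TMM factors (edgeR 4.0.16, R 4.3.3) were 0.865 and 1.16. Ratios have 95% Clopper-Pearson intervals conditional on the summed count. No source here mentions molecular identifiers, so these intervals describe the sampling of reads, not of molecules. The procedure was run on simulated counts with known folds and counting error only. That run checks the calculation, not the spread between mice or the split of reads between copies. Positions and promoters come from RefSeq (GRCm38.p6, the assembly of mm10), where 48 of 48 symbols matched, 40 of them with a promoter. Lengths, coding identity and shared 50-base words come from GENCODE M21 (47 genes). Alternatives were scalings (including DESeq2 1.42.0), filters, folds, intervals, added counts and summed copies. Genes, lists and rules were chosen with earlier results of these data known. The rule names genes at least 2-fold apart, the most abundant ones, close copies, and from other lists up to 3 higher, 3 lower and the most abundant. Cyp2c29, Cyp2j6, Alas1, Nr1i2, Hnf4a and Rora fall outside it and were chosen after their values were seen. Values of Cyp2c40, Cyp2d10, Cyp2d11, Cyp2d12, Cyp2d13, Cyp2d22, Cyp2d40 and Cyp2j9 are also given outside it. Close copies are here those with at least 95% identity in coding sequence.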

Additional observations from a re-analysis of the deposited data

How the results depend on the processing

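With total-count scaling 1 gene (Cyp2c54) was at least 2-fold lower in place of 5, 9 were at least 2-fold higher in place of 7, and the median log2 ratio was 0.38. Over all measured genes that scaling gave 10.6% higher and 1.1% lower. It changed the sign of 11 of 36 measured genes, none of them 2-fold apart. Totals without the 20 most abundant genes gave a median of 0.085, and 8 signs changed. At a mean of at least 5 CPM, 3 genes were higher, since Cyp2b10, Cyp2b13, Cyp2c39 and Cyp2c55 did not reach that level. Cyp2b9, among these 3, reached it through its LKO-labelled level alone. At 1.5-fold 8 genes were lower and at 3-fold 1 was. Median-of-ratios and upper-quartile scaling, no filter, wider intervals, added counts and summed copies (chosen after seeing the data) kept both counts within 1.5 times and the median, where recomputed, between −0.05 and −0.03. Copies were summed by coding identity, and the alternative by protein identity was not run. No result at least 2-fold apart changed direction under any scaling. No paired analysis was possible because each group had 1 library, which also left no replicate to leave out.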

Other observations

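Rows with a Cyp2 name outside the symbol rule were few. Cyp2d37-ps, a pseudogene by its symbol, had 2537 and 2562 counts (22.9 and 16.8 CPM), 1.36-fold (interval 1.29 to 1.44) lower in the library labelled LKO. Cyp2c53-ps, likewise named as a pseudogene, had 33 and 9 counts, and Cyp2ab1 had 9 and 2, both under the filter on low counts.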
